A study of Capra hircus with 6 samples.

Results

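Expression of 9 genes of thyroid hormone action in the nucleus was followed in the medio-basal hypothalamus of goats, the block at the base of the brain that holds the arcuate nucleus and the median eminence. They are the thyroid hormone receptors THRA and THRB, their partner receptors RXRA, RXRB and RXRG, the corepressor NCOR1, and the hormone-responsive genes KLF9, HR and THRSP. They were found by symbol in the deposited table of counts per gene, where all 9 were present among 28907 rows, and all 9 passed the filter on low counts, which kept 16756 genes.

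The groups were adult Alpine goats sampled in January, in the follicular phase before ovulation (5 goats) and adult Alpine goats in anestrus, the season without cycles, in mid-May (8 goats). The RNA of the goats of a condition was combined at random into 2 equimolar mixes, so there were 2 pools in each group, and the labels do not give the goats in each pool. Season and ovarian state differed together between the groups. The p-values rest on the spread between pools, which the fit estimates partly across all genes, and not on the spread between goats. A further 5 goats of the January luteal phase belong to the study and were not analysed here. The 4 libraries held 14553821 to 25292678 counts. Levels below are counts relative to the scaled library total (CPM).

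Thyroid hormone acts through THRA and THRB, nuclear receptors that sit on DNA mostly as pairs with an RXR. Without hormone the pair holds corepressors such as NCOR1, which bring the histone deacetylase HDAC3 and keep target genes low. Hormone binding exchanges these for coactivators, and targets are transcribed. In seasonal mammals, long days raise thyrotropin from the pars tuberalis, which raises the activating deiodinase DIO2 in tanycytes, the cells lining the base of the third ventricle, and with it the local supply of the active hormone T3.

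None of the 9 genes passed an adjusted p of 0.05 (edgeR quasi-likelihood test, Benjamini-Hochberg over all genes tested), where 0.203% of all genes tested did, 34 in number (0.0119% higher and 0.191% lower in the follicular phase). That split of 2 higher and 32 lower stayed close under some settings: 2 and 44 with RLE, 3 and 40 with upper quartile factors, 1 and 29 in limma-voom. Under others it moved, to 43 and 100 in DESeq2 and 127 and 173 with no count filter. With all pools, more genes were called lower than higher under every setting. The order turned with either anestrus pool left out, in fits with 1 anestrus library. At an unadjusted p under 0.05, 3 of the 9 lay higher in the follicular phase (HR, THRA and RXRG) and 0 lower, beside 4.26% and 4.29% of all genes tested. DESeq2 and limma-voom also called 0 of the 9. With no overlap between pools of the groups, 4 of the 9 lay higher in the follicular phase (THRA, RXRG, HR and THRSP) and 1 lower (NCOR1), where 17.6% of all genes did the first and 20.7% the second. The log2 fold change, follicular over anestrus, was positive for 8 of the 9, with a median of 0.13. It was positive for 49.9% of all genes tested, whose median was -0.00067.

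**Figure D1:**
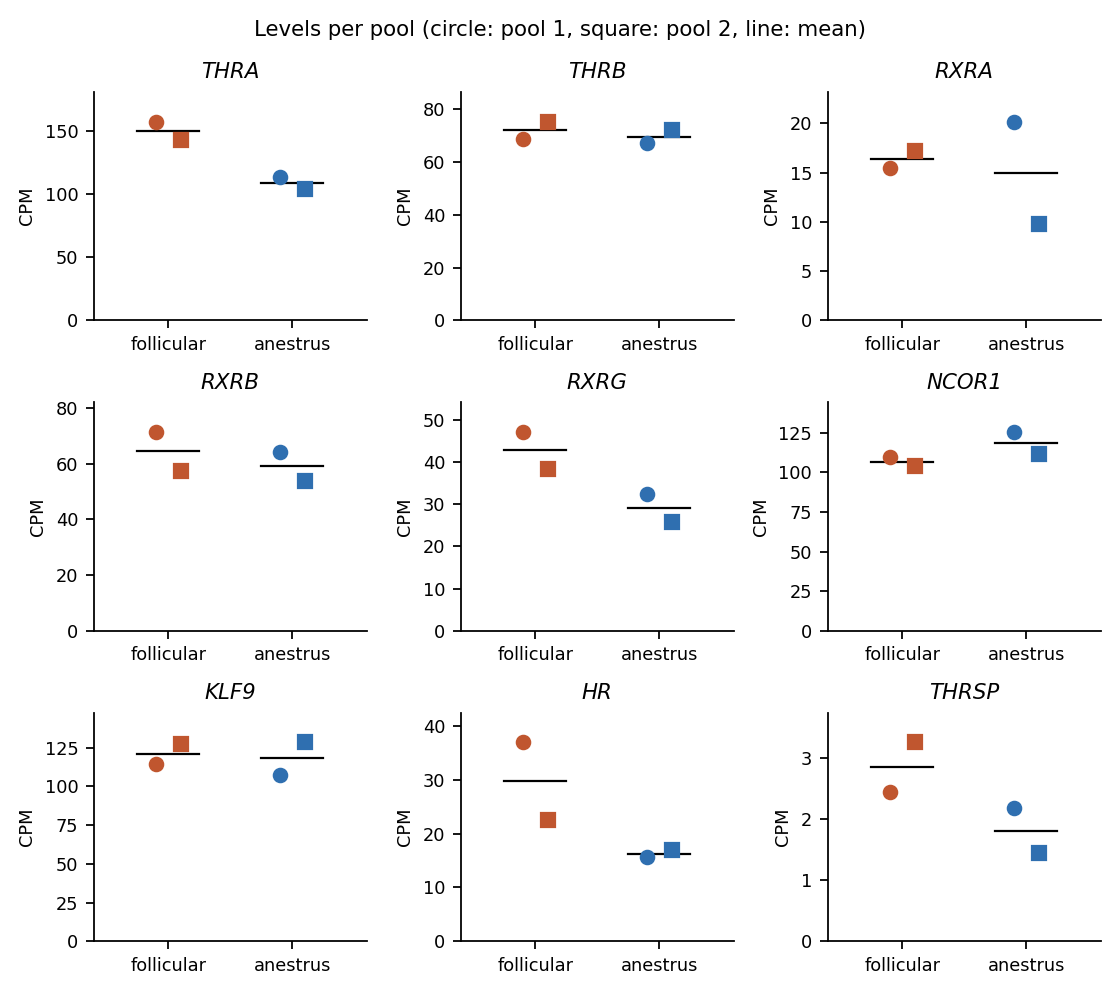
Level of each of the 9 genes (y axis, CPM, from 0) by pool, with the follicular phase on the left and anestrus on the right, pool 1 as a circle, pool 2 as a square and the mean as a line. THRA, RXRG, HR and THRSP have both follicular pools above both anestrus pools, and the HR follicular pools lie apart from each other, at 37.0 and 22.5 CPM.

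Among the receptors that bind the hormone, THRA, the form that predominates in brain, measured 157 and 143 CPM in pools 1 and 2 of the follicular phase, against 113 and 103 CPM in pools 1 and 2 of anestrus. Both follicular pools lay above both anestrus pools, by more than the pools of either group differed from each other. Its log2 fold change was 0.47 ± 0.16 (SE), or 1.38-fold, with a 95% interval from 1.08-fold to 1.77-fold, an unadjusted p of 0.0148 and an adjusted p of 0.413 (edgeR). Counts are per gene, so the hormone-binding THRA product and its splice variant that does not bind hormone are not told apart.

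THRB, the receptor known for feedback of thyroid hormone on hypothalamus and pituitary, was at 68.8 and 75.3 CPM in the follicular pools, against 67.2 and 72.0 CPM in the anestrus pools. The groups overlapped. The log2 fold change was 0.05 ± 0.17, and the 95% interval, from 0.799-fold to 1.34-fold, leaves room for a difference of that size in either direction (adjusted p = 0.975, edgeR).

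The counts of THRA per count of THRB in a library, a value free of library scaling, were 2.284 and 1.897 in the follicular pools, against 1.69 and 1.44 in the anestrus pools. The ratio averaged 2.09 ± 0.274 in the follicular phase, against 1.56 ± 0.176 in anestrus (SD, n = 2 pools each), with no overlap. An exact 2-sided permutation test of the log2 ratio gave p = 0.333, the smallest that 2 pools against 2 can give, so that test cannot separate the groups. The ratio says nothing on which receptor is more abundant, since counts were not divided by transcript length.

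The RXR partners differed among themselves. RXRG, the form with the most restricted tissue range, is found in brain and pituitary among other tissues. It was at 47.1 and 38.4 CPM in the follicular pools, against 32.5 and 25.8 CPM in the anestrus pools. The groups did not overlap, though the nearest follicular and anestrus pools were closer to each other than the follicular pools were. Its log2 fold change was 0.56 ± 0.22, or 1.47-fold, with a 95% interval from 1.05-fold to 2.05-fold (unadjusted p = 0.0276, adjusted p = 0.496, edgeR).

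RXRB, a broadly expressed form, was at 71.4 and 57.4 CPM in the follicular pools, against 64.4 and 53.9 CPM in the anestrus pools, a log2 fold change of 0.12 ± 0.19. RXRA was at 15.5 and 17.2 CPM in the follicular pools, against 20.2 and 9.77 CPM in the anestrus pools. Both genes overlapped between groups, and the anestrus pools of RXRA enclosed its follicular pools. Leaving out anestrus pool 1 gave RXRA a log2 fold change of 0.74, and leaving out anestrus pool 2 one of -0.26. Its 95% interval, from 0.647-fold to 1.85-fold, shows how little that spread can settle (adjusted p = 0.961, edgeR).

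As a share of the counts of the 3 RXR genes, a measure chosen after the values were seen, RXRG took 35.2% and 34.0% in the follicular pools, against 27.7% and 28.8% in the anestrus pools. The exact (Clopper-Pearson) 95% intervals, which cover counting error only, ran from 31.9% to 36.8% over the follicular pools and from 25.6% to 31.1% over the anestrus pools. RXRB took 53.3% and 50.8% in the follicular pools, against 55.0% and 60.2% in the anestrus pools. RXRA took 11.6% and 15.2% in the follicular pools, against 17.3% and 10.9% in the anestrus pools, and so overlapped. The difference in the RXRG share was 6.28 percentage points, and 5.69 to 6.86 with any 1 pool left out.

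**Figure D2:**
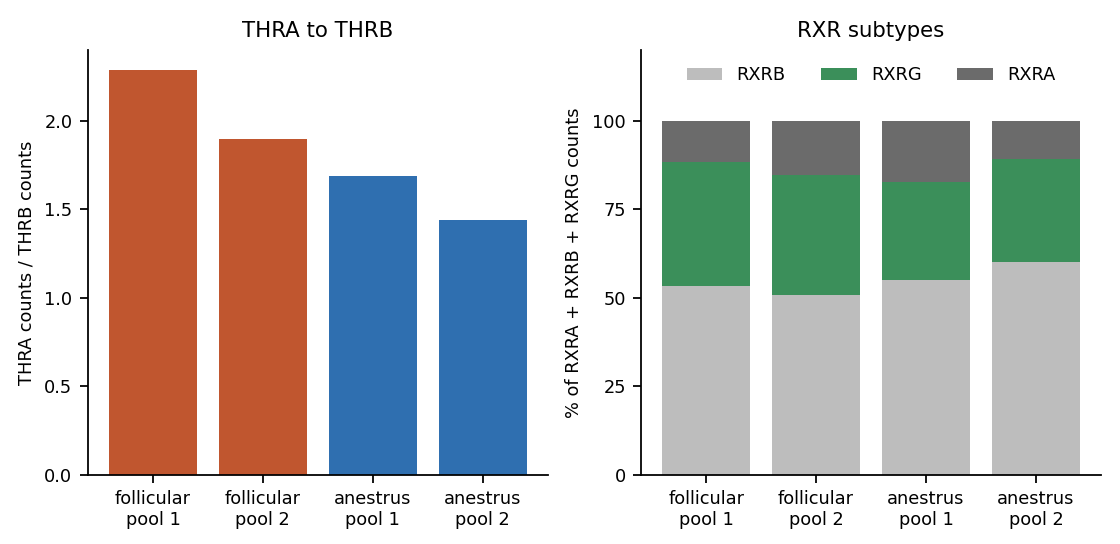
Left, counts of THRA per count of THRB in each pool (bars from 0). Right, the share of RXRA, RXRB and RXRG in their summed counts (percent, stacked). The follicular pools hold the higher THRA to THRB values, 2.284 and 1.897, and the larger RXRG shares, 35.2% and 34.0%.

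The corepressor NCOR1 was at 109 and 104 CPM in the follicular pools, against 125 and 111 CPM in the anestrus pools. It was the 1 gene of the 9 with both follicular pools below both anestrus pools, by a margin smaller than the spread within anestrus. The log2 fold change was -0.15 ± 0.16 (adjusted p = 0.881, edgeR). In the RefSeq gene table NCOR1 overlaps PIGL, a gene of glycolipid anchor synthesis with 292 to 571 counts a library, and the counting of strand and of shared reads is not given in the sources used here. RXRA overlaps a non-coding gene with 0 counts in every library, and the other members overlap no listed gene.

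The 3 hormone-responsive genes differed from each other. KLF9 encodes a zinc finger transcription factor that T3 induces quickly in rodent brain. It was at 114 and 127 CPM in the follicular pools, against 108 and 128 CPM in the anestrus pools. The anestrus pools enclosed the follicular ones, at a log2 fold change of 0.03 ± 0.17 and a 95% interval from 0.790-fold to 1.33-fold (adjusted p = 0.981, edgeR).

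HR (hairless) encodes a nuclear corepressor that binds thyroid receptors and is itself induced by T3 in rodent brain. It was at 37.0 and 22.5 CPM in the follicular pools, against 15.6 and 16.9 CPM in the anestrus pools. The anestrus pools were close together, and follicular pool 1 stood well above the other 3 libraries. HR averaged 29.7 ± 10.2 CPM over the follicular pools, against 16.2 ± 0.930 CPM over the anestrus pools (SD, n = 2 pools each). The log2 fold change was 0.88 ± 0.27, or 1.83-fold, with a 95% interval from 1.20-fold to 2.80-fold and an adjusted p of 0.351 (unadjusted p = 0.00905, edgeR). Ordered by p, HR stood at place 432 of the 16756 genes, THRA at 599 and RXRG at 929.

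The HR value rested largely on follicular pool 1: the log2 fold change was 0.49 without it and 1.19 without follicular pool 2. Without anestrus pool 2 HR passed (log2 fold change 0.98, adjusted p = 0.0315, edgeR, beside 0.0546 to 1.0 in the other 13 alternatives), in a fit where 583 genes were called in all and the lone anestrus pool is assumed to vary like the follicular pools.

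THRSP (Spot 14), a promoter of fatty acid synthesis known as a T3-responsive gene of rat liver, was near the lower end of what the libraries measure, where 62 and 56 reads were counted in the follicular pools, against 31 and 26 in the anestrus pools. These were 2.44 and 3.25 CPM against 2.17 and 1.44 CPM. The pools did not overlap, but the counting intervals did: follicular pool 1 had a 95% Poisson interval of 1.87 to 3.13 CPM and anestrus pool 1 one of 1.48 to 3.08 CPM. The log2 fold change was 0.66 ± 0.46, with a 95% interval from 0.784-fold to 3.17-fold (adjusted p = 0.773, edgeR), which leaves the direction unsettled.

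**Figure D3:**
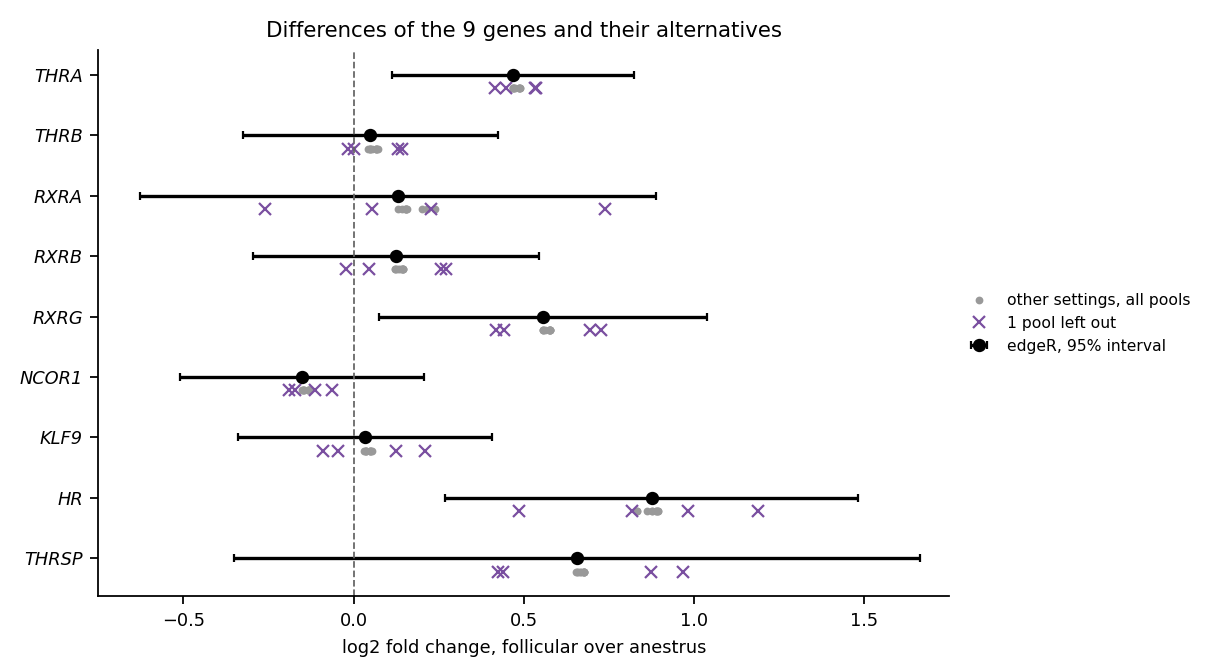
Log2 fold change, follicular over anestrus (x axis), of each of the 9 genes. Black points with bars are the edgeR estimate and its 95% interval, grey dots the other settings with all 4 pools, and crosses the fits with 1 pool left out. The intervals of THRA, RXRG and HR lie above 0 before adjustment, and RXRA has the widest range with 1 pool left out, -0.26 to 0.74.

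Neuron and glial markers also had positive log2 fold changes, though all but GFAP missed the adjusted threshold. In bulk tissue fewer cells of a type and less RNA per cell cannot be told apart. All 9 measured neuron markers, all 8 astrocyte markers and all 10 oligodendrocyte markers had positive log2 fold changes, with medians of 0.42, 0.57 and 0.76 beside 0.47 for THRA, 0.56 for RXRG and 0.88 for HR. Neuron markers summed to 4506 and 5124 CPM in the follicular pools, against 3879 and 3874 CPM in the anestrus pools. Astrocyte markers summed to 9598 and 10690 CPM in the follicular pools, against 5921 and 6157 CPM in the anestrus pools, and for oligodendrocyte markers the sums were 3505 and 4707 CPM against 2978 and 1923 CPM. Of these, GFAP of the astrocytes was called (log2 fold change 1.01, adjusted p = 0.0316, edgeR). Its call was lost without follicular pool 1, in a fit with fewer calls over all genes, where its log2 fold change was 1.03. No measured marker of the 3 lists was at 0 in any library.

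Relative to these sums, in a measure chosen after the values were seen, most of the separation was lost. Per 1000 CPM of neuron markers, THRA was at 34.9 and 27.9 in the follicular pools, against 29.2 and 26.7 in the anestrus pools, and RXRG at 10.45 and 7.50 in the follicular pools, against 8.37 and 6.67 in the anestrus pools. Both overlapped. HR was at 8.20 and 4.39 in the follicular pools, against 4.01 and 4.36 in the anestrus pools on that scale, where follicular pool 2 was level with anestrus pool 2. Per 1000 CPM of astrocyte markers THRA lay lower in the follicular pools, at 16.4 and 13.4, than in the anestrus pools, at 19.2 and 16.8. A large part of that sum was GFAP, at 4804 and 4830 CPM in the follicular pools, against 2329 and 2466 CPM in the anestrus pools. S100B and SLC1A3, also large in that sum, had log2 fold changes of 0.56 and 0.54, beside 1.01 for GFAP and 0.47 for THRA. Whether THRA would lie lower beside the astrocyte markers without GFAP was not tested, so that order is not read as a result about THRA. RXRG and HR overlapped per 1000 CPM of astrocyte markers, and all 3 overlapped per 1000 CPM of oligodendrocyte markers. The part of cell composition in the differences of THRA, RXRG and HR was not tested further.

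Of the 9 tested pituitary markers, 7 had a negative and 2 (LHB and CHGA) a positive log2 fold change. The summed levels of the 10 matched ones were 7238 and 5453 CPM in the follicular pools, against 15760 and 12020 CPM in the anestrus pools, most of it from CGA. Of the 9, TSHB and CGA were called lower in the follicular phase and the rest did not pass. The median log2 fold change was 0.29 over microglia markers, 0.03 over endothelium markers and -0.26 over tanycyte markers. Among the tanycyte markers DIO2, which makes T3, was called, at 115 and 105 CPM in the follicular pools against 230 and 276 CPM in the anestrus pools (adjusted p = 0.0226, edgeR). The DIO2 call was lost without follicular pool 1, in a fit with fewer calls over all genes, where its log2 fold change was -1.25. Beside -1.20 for DIO2, the log2 fold changes of KLF9, HR and THRSP were 0.03, 0.88 and 0.66, none of them called. The tanycyte markers RAX and GPR50 were scarce: RAX was at 1.10 and 0.232 CPM in the follicular pools, against 2.87 and 0.555 CPM in the anestrus pools, and GPR50 was at 0 in 3 of the 4 libraries.

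Of 12 genes of the NCOR1 corepressor complex and of its partners and related repressors, 0 were called, 5 had a positive and 7 a negative log2 fold change, and the median was -0.07. TBL1X, the transducin-like subunit that serves in corepressor exchange, was at 70.2 and 74.0 CPM in the follicular pools, against 97.0 and 97.9 CPM in the anestrus pools, a log2 fold change of -0.44 ± 0.16 (adjusted p = 0.456, edgeR). HDAC3, the deacetylase of the complex, was at 74.3 and 67.5 CPM in the follicular pools, against 86.6 and 83.2 CPM in the anestrus pools, without overlap. SIN3B, a scaffold of a related complex, had a log2 fold change of 0.32 ± 0.23, which was 0.023 with follicular pool 1 left out and 0.57 with follicular pool 2 left out.

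Of 12 coactivators, 0 were called, 8 had a negative log2 fold change and 4 a positive one, with a median of -0.17. NCOA3, of the p160 family that binds hormone-occupied receptors, was at 68.0 and 69.5 CPM in the follicular pools, against 93.7 and 105 CPM in the anestrus pools. These groups lay far apart relative to their spread, at a log2 fold change of -0.53 ± 0.17 (unadjusted p = 0.00827, adjusted p = 0.342, edgeR). NCOA1, of the same family, had a log2 fold change of -0.27 ± 0.16, and CREBBP, a histone acetyltransferase, one of -0.26 ± 0.17. No overlap with the follicular pools lower was seen for 5 of the 12 and with them higher for 0, where 20.7% and 17.6% of all genes did so.

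Of 14 other nuclear receptors that can pair with an RXR, 11 passed the filter on low counts and 0 were called. NR4A1, an orphan receptor that is also an immediate early gene, was at 27.1 and 15.4 CPM in the follicular pools, against 12.3 and 9.605 CPM in the anestrus pools, a log2 fold change of 0.96 ± 0.32 (adjusted p = 0.395, edgeR). As for HR, follicular pool 1 was the highest library. NR4A2 overlapped between groups, with a log2 fold change of 0.56 ± 0.36, and so did the oxysterol receptor NR1H3, with -0.41 ± 0.30. The value of NR1H3 was -0.043 with anestrus pool 1 left out and -0.66 with anestrus pool 2 left out.

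A wider list held 24 genes known from rodents to respond to thyroid hormone in brain, pituitary or liver, KLF9, HR and THRSP included. Of the 22 tested, 2 were called lower in the follicular phase, TSHB and CGA, 0 were called higher and 20 did not pass. Both called genes encode subunits of pituitary hormones, and thyroid hormone lowers them in the rodent pituitary. In seasonal mammals long days raise thyrotropin from the pars tuberalis, and a part of T3 in these differences was not tested. TSHB, the beta subunit of thyrotropin, was at 4.80 and 6.80 CPM in the follicular pools, against 1200.2 and 811 CPM in the anestrus pools (log2 fold change -7.45 ± 0.30, adjusted p = 6.66e-06, edgeR). CGA, the alpha subunit, had a log2 fold change of -1.30 ± 0.18 (adjusted p = 0.0206, edgeR). Its call was lost without follicular pool 1, in a fit with fewer calls over all genes, where its log2 fold change was -1.43. The list's log2 fold changes were positive for 15 and negative for 7, with a median of 0.23. It shares TSHB, CGA and GH1 with the pituitary markers and several genes with the oligodendrocyte markers.

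TRH, the hypothalamic releasing hormone of thyrotropin, which T3 lowers in the rodent paraventricular nucleus, was at 14.4 and 6.39 CPM in the follicular pools, against 4.21 and 2.44 CPM in the anestrus pools. The groups did not overlap, but each spread widely, and the log2 fold change was 1.66 ± 0.46, or 3.16-fold (adjusted p = 0.301, edgeR). It was 0.97 with follicular pool 1 left out and 2.12 with follicular pool 2 left out. The adjusted p of TRH ranged from 0.000143 to 1.0 over 14 alternative settings and was 0.0499 in DESeq2. DBP, a clock-controlled transcription factor, was at 163 and 148 CPM in the follicular pools, against 284 and 220 CPM in the anestrus pools, a log2 fold change of -0.70 ± 0.17 (adjusted p = 0.235, edgeR).

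**Figure D4:**
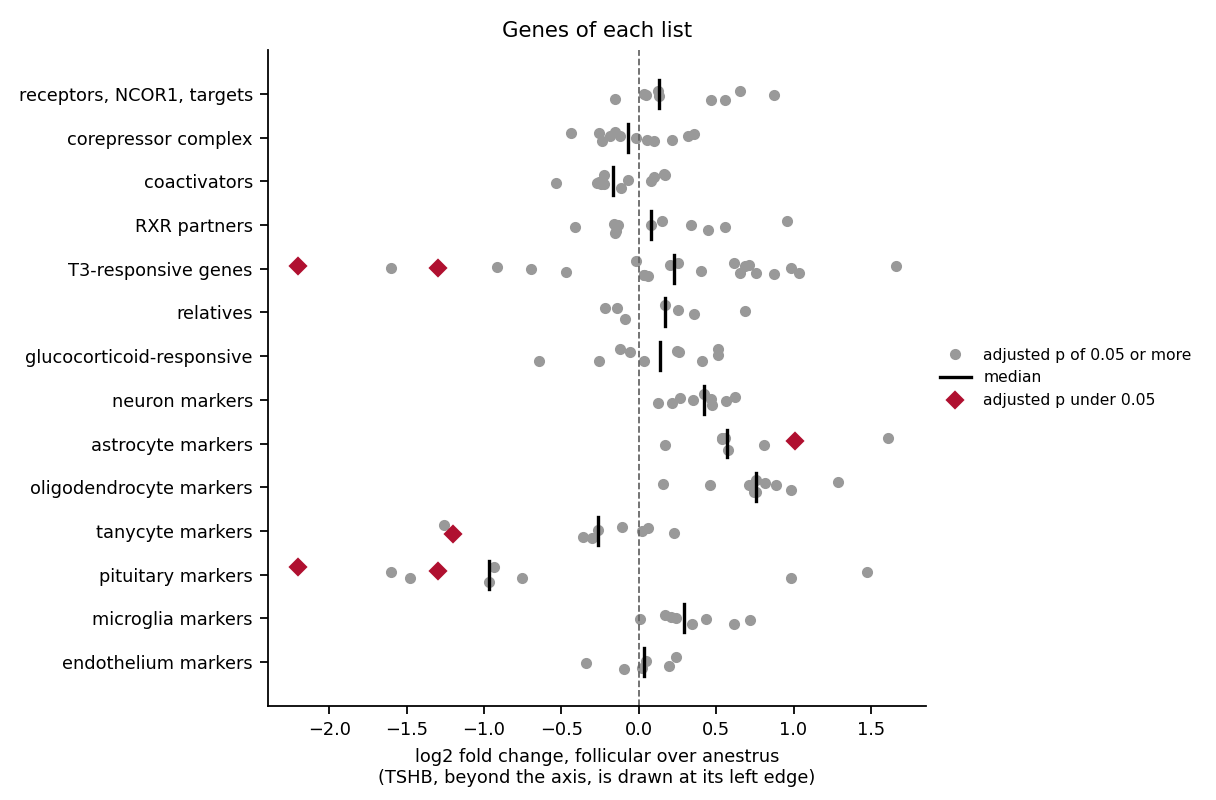
Log2 fold change, follicular over anestrus (x axis), of each tested gene in the lists (rows), with a bar at each list's median and diamonds for genes with an adjusted p under 0.05. Neuron, astrocyte and oligodendrocyte markers lie to the right of 0, at medians of 0.42, 0.57 and 0.76, while the coactivators centre on -0.17 and the 9 thyroid genes on 0.13.

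The closest relatives of the members were compared in the same fit, and 0 of the 7 tested were called. KLF16, a factor of the KLF9 subgroup, was at 64.0 and 47.5 CPM in the follicular pools, against 39.3 and 30.2 CPM in the anestrus pools, a log2 fold change of 0.68 ± 0.22 (adjusted p = 0.371, edgeR). KLF13, the nearest relative of KLF9 on the list, had one of 0.25 ± 0.18. MID1IP1, the partner and relative of THRSP, was at 54.7 and 45.5 CPM in the follicular pools, against 56.4 and 33.1 CPM in the anestrus pools, and overlapped. The demethylase relatives of HR, named KDM3A, KDM3B and JMJD1C, had log2 fold changes of -0.14, -0.22 and -0.09.

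KLF9 is also a glucocorticoid target, and of 10 glucocorticoid-responsive genes 0 were called. FKBP5, a chaperone partner of steroid receptors, was at 173 and 200.3 CPM in the follicular pools, against 295 and 289 CPM in the anestrus pools, a log2 fold change of -0.65 ± 0.16 (adjusted p = 0.235, edgeR). SGK1, a kinase induced by corticosteroids, went the other way, with 0.51 ± 0.19, as did ERRFI1, an inhibitor of growth factor receptors, with 0.41 ± 0.22. The median of the 10 was 0.14.

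By the likeness of their profiles over the 4 libraries (root mean square distance of centred log2 CPM among 10381 other named genes of at least 10 CPM), the genes nearest THRA were CADM3, DTX4 and ANKRD11, at distances of 0.0249, 0.0279 and 0.0287. Those nearest KLF9 were DZIP3, RNF144B and DNAJC9, at 0.0028, 0.00614 and 0.0104. With 4 libraries such nearness is common: 239 genes lay within 0.1 of THRA and 1521 within 0.1 of KLF9.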

How the data were processed

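TriReagent RNA was made into libraries with a stranded Truseq mRNA kit, per the labels' protocols. The tools the authors ran are, per the submitters' processing notes, featureCounts 2.0.0 (a read counter), TopHat2 2.1.1 and Bowtie2 2.3.5.1 (aligners), with bcl2fastq 2.20, SAMtools 1.9 and FastQC. No source used here gives the genome build, annotation release or strand setting, so no coordinates are printed. The deposited values are raw counts per gene, with no normalization.

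Filtering was by edgeR's filterByExpr (minimum count 10, minimum total 15) and scaling by TMM. The test was edgeR's quasi-likelihood test (version 4.0.16, R 4.3.3, robust, 2-sided), with the group as the only term and Benjamini-Hochberg adjustment over 16756 genes. Standard errors are the log2 fold change divided by the root of its F value, and 95% intervals use the fit's total degrees of freedom. The steps were tested on simulated data, whose outcome is not reported here. How small a difference 2 pools a group could have called is therefore not stated. Between pools of 1 group, counts differed beyond sampling noise (chi-square per degree of freedom 18.9 and 29.6), so none was merged with another. The titles give the anestrus pools the opposite numbers to the library names. The library names head the table's columns and were used. Of 152 list entries, 150 matched a symbol (PRL and TUBB3 did not) and 142 were tested.

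The members and lists were chosen with earlier results of these data known. Genes named are all members, called genes of the lists (for markers, these alone), the 3 of each other list with the smallest p, and those nearest THRA and KLF9. MID1IP1, KDM3A, KDM3B, JMJD1C, RAX, GPR50, LHB and CHGA were named after their values were seen. Results of some genes that this rule names are not reported here. Alternatives were other scalings (RLE, upper quartile, library totals), no filter or a mean of 1 CPM, DESeq2 1.42.0, limma-voom (limma 3.58.1), no robust estimation, a replicate block, and each pool left out.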

Additional observations from a re-analysis of the deposited data

How the results depend on the processing

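Of the 9 genes, 0 were called under every setting with all pools, and 0 to 1 with a pool left out. THRA, RXRG, HR, THRSP and NCOR1 kept their direction in all 14 alternatives. Their pools did not overlap between groups, so leaving out a pool could hardly reverse them, and the other settings reuse the same counts. Keeping direction therefore does not settle it, and the 95% intervals of THRSP and NCOR1 include no difference. With 1 pool left out, the log2 fold change ran from -0.016 to 0.143 for THRB, -0.261 to 0.740 for RXRA, -0.023 to 0.273 for RXRB, -0.090 to 0.210 for KLF9, -0.0099 to 0.965 for NR4A2, -0.090 to 0.214 for DZIP3, -0.082 to 0.222 for RNF144B and -0.099 to 0.229 for DNAJC9, so the direction of these is not settled. The log2 difference of the THRA to THRB ratio, 0.418 with all pools, ran from 0.284 to 0.552.

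Over all genes, 34 calls became 300 with no count filter, 143 in DESeq2, 90 with the replicate block and 130 with the block on the titles' numbering, chosen after the data were seen, and 4 to 810 with a pool left out. The cause was not tested. The thyroid-responsive list had 2 calls, 7 with no filter, 5 with the crossed block and 1 to 9 with a pool left out. The glucocorticoid list had 0 calls, and 1 with no filter (FKBP5). The corepressors, coactivators, RXR partners and relatives had 0 calls under every setting with all pools. With a pool left out these lists had some calls, among them NCOA3, NR4A1 and KLF16 without anestrus pool 1 and FKBP5 without either anestrus pool. Fits that leave out a pool have 1 library in a group, which is assumed to vary like the other group.

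Deviations of same-numbered pools correlated at 0.26 across genes by the library names. By the titles the value is -0.26, the same value with its sign turned by the renumbering and not a separate result. The labels call the mixes random, so the numbers do not pair the pools, and the block called 0 of the 9.

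With 2 pools a group, precision is set by the spread between pools, which the fit estimates partly from all genes tested. For THRSP, counting limits precision too.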
